A study of Mus musculus with 9 samples.

Results

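The genes described here are those of cholesterol synthesis and of its control by sterol regulatory element-binding proteins (SREBPs). They were chosen by name: of 30 listed genes, 27 have a feature with that symbol on the array, out of 19505 genes measured. Acat2, Srebf1 and Tm7sf2 were not analysed here. Of the 27, 17 encode enzymes of synthesis (7 of the mevalonate arm, 10 of the sterol arm), 4 belong to SREBP control, and 6 are transport genes or lipid targets. RNA of 3LL cells (Lewis lung carcinoma, LLC, a transplantable mouse line) that carry a GFP label was read on 9 1-colour whole-transcript arrays, 3 in each of 3 groups. The dish group was grown as a 2-dimensional monolayer for 7 days. The subcutaneous group was GFP-positive cells taken out of tumours under the skin, and the lung group GFP-positive cells taken out of the lung after transplantation into it, both 7 days after transplantation. The series text calls these lungs "BLM lungs", an abbreviation it does not spell out. All groups share the line, its GFP label and the strain entry C57/BL6. Whether samples of 1 group are from different animals or cultures is not in the labels. The p-values here therefore reflect only the spread between samples, and that spread may be technical.

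As background, cells make cholesterol from acetyl-CoA through mevalonate, isoprenoid diphosphates and squalene, which is closed to lanosterol and then trimmed and desaturated to cholesterol. SREBPs are held in the endoplasmic reticulum with their escort SCAP by INSIG proteins while sterol is plentiful. When sterol falls, SCAP takes them to the Golgi apparatus, where they are cut and released to switch on genes of synthesis and uptake. Liver X receptors act on the other side and raise the efflux pumps ABCA1 and ABCG1 when sterols accumulate.

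Values are the log2 signals that the authors deposited, and a difference of 1 is a doubling of signal. A gene was called at a Benjamini-Hochberg adjusted p under 0.05 over all 19505 genes in limma, in 1 fit of the 9 arrays, and "rose" or "fell" is said of called genes alone. Background was set at the 90th percentile of 5222 negative controls on an array (range 7.20 to 7.73). Above it on 3 or more arrays were 22 of the 27 genes. Insig2, Npc1, Abca1 and Abcg1 were above it on 0 arrays, and Mvk on 1. Where a gene was not well above background on any array of a group, "at least" gives the difference of the brighter group's mean from background, or from the gene's own signal where that was higher.

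Promoter windows from RefSeq (build GRCm38.p6, 250 bases before to 50 after the annotated start) matched 21 of the 27 genes. Those of Fdps, Fdft1, Sqle, Stard4, Npc1 and Abcg1 were not in the table. The 5 windows below are shown because they span the patterns in the signals: Hmgcs1, Insig1, Msmo1 and Cyp51 rose in subcutaneous cells, and Ebp was highest in lung cells. They lie at chr13:119690101-119690400 (plus strand) for Hmgcs1, chr5:28071162-28071461 (plus) for Insig1, chr8:64733529-64733828 (minus) for Msmo1, chr5:4104648-4104947 (minus) for Cyp51 and chrX:8193463-8193762 (minus) for Ebp. Each is written 5′ to 3′ on the gene's strand, and capitals mark a match on either strand to a sterol response element (SRE) core, TCACNCCAC, a CCAAT box, read as ATTGG on the other strand, or an E-box, CACGTG.
Hmgcs1: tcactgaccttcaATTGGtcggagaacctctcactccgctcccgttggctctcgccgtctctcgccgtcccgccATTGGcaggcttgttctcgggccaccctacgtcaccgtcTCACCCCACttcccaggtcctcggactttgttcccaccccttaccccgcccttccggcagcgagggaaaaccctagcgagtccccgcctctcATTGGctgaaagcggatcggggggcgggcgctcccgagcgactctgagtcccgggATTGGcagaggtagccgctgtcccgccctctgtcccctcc
Insig1: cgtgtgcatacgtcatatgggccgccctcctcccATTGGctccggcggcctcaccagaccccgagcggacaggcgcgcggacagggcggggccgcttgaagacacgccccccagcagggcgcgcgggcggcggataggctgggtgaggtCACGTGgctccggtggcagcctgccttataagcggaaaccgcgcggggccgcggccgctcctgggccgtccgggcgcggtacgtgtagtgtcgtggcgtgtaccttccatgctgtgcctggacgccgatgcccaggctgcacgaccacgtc
Msmo1: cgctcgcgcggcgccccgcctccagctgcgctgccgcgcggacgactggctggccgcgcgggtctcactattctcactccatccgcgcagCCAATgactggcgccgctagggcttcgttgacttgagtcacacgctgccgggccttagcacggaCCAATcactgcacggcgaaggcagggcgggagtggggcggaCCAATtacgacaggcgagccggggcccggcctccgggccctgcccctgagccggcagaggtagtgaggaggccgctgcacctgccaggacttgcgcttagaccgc
Cyp51: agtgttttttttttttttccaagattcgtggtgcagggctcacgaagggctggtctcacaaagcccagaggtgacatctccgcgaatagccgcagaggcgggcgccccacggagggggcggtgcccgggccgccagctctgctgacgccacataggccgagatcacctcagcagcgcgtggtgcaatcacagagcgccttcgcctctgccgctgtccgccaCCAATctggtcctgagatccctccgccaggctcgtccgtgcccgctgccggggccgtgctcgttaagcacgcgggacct
Ebp: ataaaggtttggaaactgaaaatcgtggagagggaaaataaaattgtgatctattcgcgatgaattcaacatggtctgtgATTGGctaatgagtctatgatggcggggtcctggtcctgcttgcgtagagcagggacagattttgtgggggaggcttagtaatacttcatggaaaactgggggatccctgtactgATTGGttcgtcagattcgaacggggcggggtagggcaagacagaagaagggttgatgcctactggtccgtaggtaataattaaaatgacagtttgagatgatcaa

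The SRE core was found in 1 of the 21 matched genes (4.76%), Hmgcs1, at position −137 from the annotated start, and in 1.44% of all 27025 genes with a window. The CCAAT box, the site of nuclear factor Y, stood in 18 of the 21 genes (85.7%), against 41.1% of all 27025 genes with a window. The window of Hmgcs1 held 4 such boxes and that of Msmo1 held 3, while Cyp51 had 1 and Ebp had 2. The 3 genes without one were Abca1, Lpin1 and Scap. The E-box stood in 6 of the 21 (Abca1, Dhcr7, Hsd17b7, Insig1, Sc5d and Scap; 28.6%), against 8.09% of all genes. None of these motifs contains another, and the E-box reads the same on both strands and was counted once. A match describes the letters in a window and is not a shown binding site. Only this 1 pattern of the SRE was searched, and only in these windows. The lack of a match therefore does not show that a gene has no SRE. Ebp, which rose in lung against subcutaneous cells, and Msmo1 and Cyp51, which fell there, all carried the CCAAT box.

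**Figure D1:**
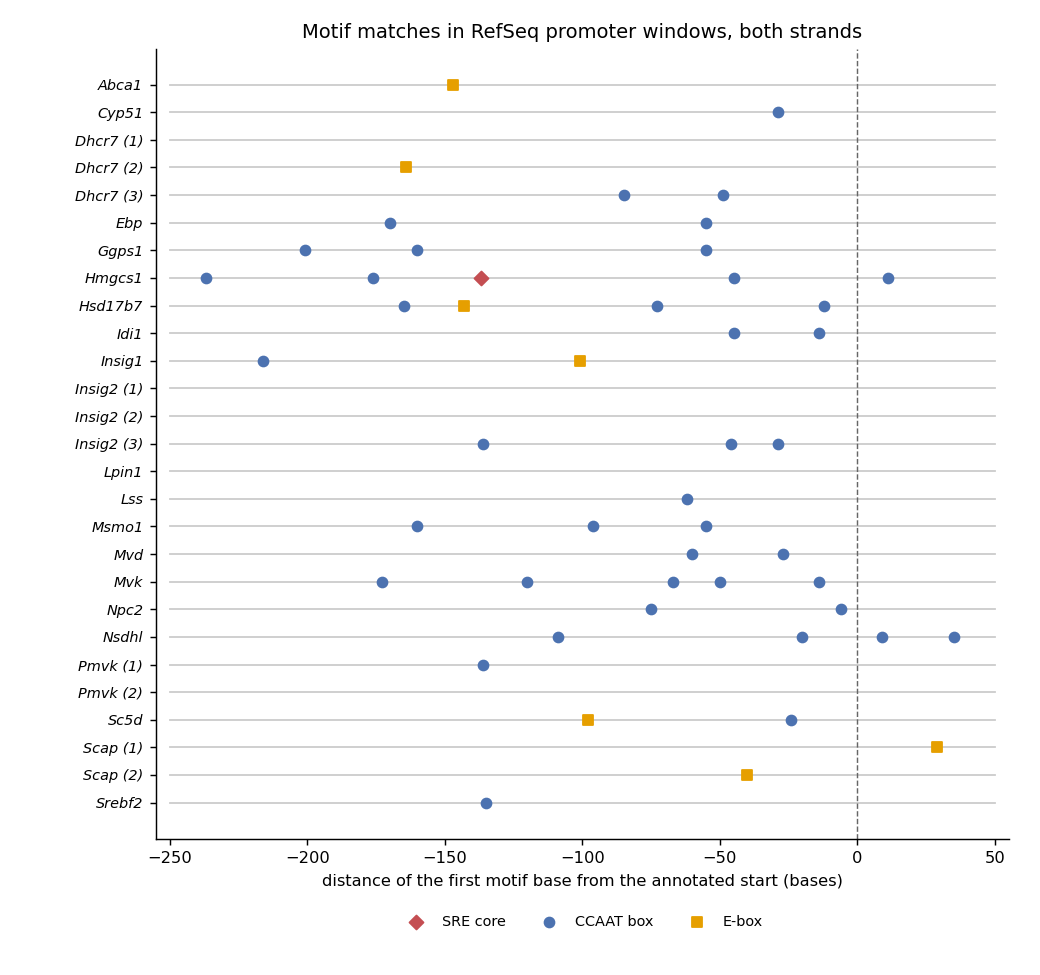
Distance in bases of each motif match from the annotated start (dashed line) in the RefSeq windows of the 21 matched genes; grey lines are windows, numbers in brackets count the windows of a gene, diamonds are SRE cores, circles CCAAT boxes and squares E-boxes. The only match to the SRE core pattern is in Hmgcs1, and 18 of the 21 genes have a CCAAT box.

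Across the series, arrays of 1 group correlated at r = 0.980 to 0.991 over genes and those of different groups at 0.958 to 0.977 (genes are not independent replicates). RNA integrity numbers were 8.4 to 8.6 in dish, 7.5 to 8.6 in subcutaneous and 7.9 to 8.3 in lung samples. The upper quartile of signal was higher on the lung arrays (8.42 to 8.57) than on the others (8.10 to 8.38). So was the median level of 22 measured genes with very long mRNAs, relative to their mean over the 9 arrays, on lung replicates 1 and 2 (0.934 and 1.11 against −0.836 to 0.0105 on the other 7 arrays). Of the tumour line's markers, Krt8 and Vim were above background on all 9 arrays, and the epithelial genes Epcam and Cdh1 on 0. The keratin gene Krt18 was under background in dish cells (5.27 to 5.98), at 10.99 to 11.06 in subcutaneous cells and at 8.24, 7.23 and 8.66 in lung cells, 2 of them above background. Surfactant gene Sftpc had signals of 15.59, 13.45 and 16.37 in lung samples against 4.95 to 5.83 elsewhere. The fibroblast gene Dcn had 16.37 to 17.09 in subcutaneous, 10.53 to 13.94 in lung and 6.85 to 7.32 in dish samples.

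Cells from subcutaneous tumours had far more signal from the pathway than cells in dishes. Of the 27 genes, 17 rose and 0 fell, with a median difference of 1.74 against −0.01 over all genes. Over all genes 12.9% were called, 6.41% higher and 6.47% lower. The rise took in 13 of the 17 enzymes (median 2.24), both the mevalonate arm (5 of 7) and the sterol arm (8 of 10). The 3 values of the groups did not overlap for 18 of the 27 genes, 17 of them higher in subcutaneous cells, and for 5711 of all 19505 genes, 2770 of them higher. In bulk RNA, a change in the share of cells that carry a transcript and a change in RNA per cell cannot be told apart.

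**Figure D2:**
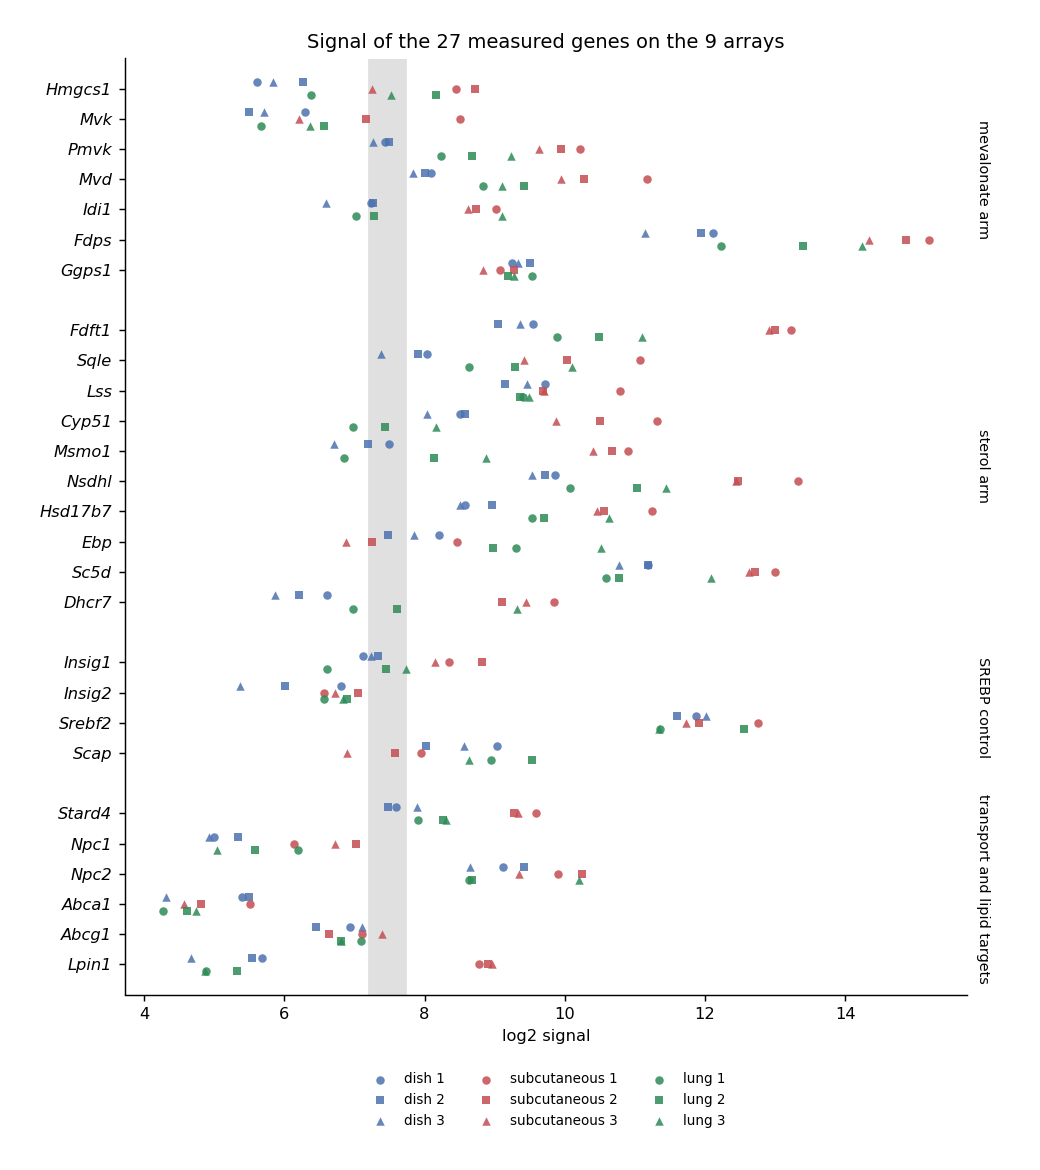
Log2 signal of the 27 measured genes on each of the 9 arrays; colours are groups, marker shapes are replicates, and the grey band is the range of the background level over arrays (7.20 to 7.73). Fdft1, Msmo1, Nsdhl and Lpin1 have all 3 subcutaneous arrays above the other 6 arrays.

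In the mevalonate arm, Hmgcs1, whose product condenses acetyl units to HMG-CoA, had 5.61, 6.26 and 5.83 in dish cells and 8.45, 8.72 and 7.24 in subcutaneous cells. All 3 dish values were under background, as was the lowest subcutaneous one, and the groups did not overlap (fitted difference 2.24 ± 0.45 SE, adjusted p = 0.00486, at least 0.71). Mvk, mevalonate kinase, was above background only on subcutaneous replicate 1 and was not called (7.29 ± 1.15 against 5.84 ± 0.41, mean ± SD, n = 3; adjusted p = 0.0577). Pmvk, the next kinase, had 7.43, 7.50 and 7.27 in dish and 10.22, 9.94 and 9.64 in subcutaneous cells. It thus stood 2.53 ± 0.28 higher (adjusted p = 8.87e-05), with no overlap. Mvd, the decarboxylase that forms isopentenyl diphosphate, rose by 2.49 ± 0.31 (adjusted p = 0.000191). Idi1, which isomerises that unit, rose from a dish level under background by at least 1.37 (adjusted p = 0.0175).

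Farnesyl diphosphate is the branch point between sterols and protein prenylation. Fdps, which makes it, had 12.11, 11.94 and 11.14 in dish cells and 15.19, 14.86 and 14.34 in subcutaneous cells, a fold of 8.39 (3.07 ± 0.44, adjusted p = 0.000537). Fdft1, squalene synthase and the first enzyme given over to sterols, had 9.54, 9.05 and 9.36 against 13.23, 12.99 and 12.91. Its 13.3-fold rise (3.73 ± 0.30, adjusted p = 9.53e-06) was the largest of the 27 genes on the fitted scale. Ggps1, which takes farnesyl diphosphate into the prenylation branch, had overlapping values and was not called (9.36 ± 0.13 in dish, 9.07 ± 0.22 in subcutaneous cells, adjusted p = 0.468).

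In the sterol arm, Sqle, squalene epoxidase, had 8.03, 7.91 and 7.37 in dish and 11.07, 10.03 and 9.42 in subcutaneous cells (2.41 ± 0.43, adjusted p = 0.00221). Lss, which closes the ring to lanosterol, was not called (9.44 ± 0.29 against 10.06 ± 0.63, adjusted p = 0.225), and its groups met between 9.69 and 9.72. Cyp51, the lanosterol demethylase, had 8.51, 8.57 and 8.04 against 11.32, 10.50 and 9.88, a rise of 2.19 ± 0.38 (adjusted p = 0.00174). The groups of Sqle and Cyp51 did not overlap, whereas Lss, between them in the pathway, had only its first subcutaneous array clearly above dish.

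The 3 genes of C-4 demethylation rose as well. Msmo1, the methylsterol oxidase, had 7.50, 7.19 and 6.71 in dish cells, with 1 array above background, and 10.90, 10.68 and 10.40 in subcutaneous cells, an 11.5-fold difference (3.52 ± 0.42, adjusted p = 0.000135). Nsdhl, the decarboxylating dehydrogenase, rose by 3.04 ± 0.35 (9.70 ± 0.16 to 12.74 ± 0.50, adjusted p = 0.000116). Hsd17b7, the ketoreductase, rose by 2.08 ± 0.32 (8.68 ± 0.25 to 10.76 ± 0.43, adjusted p = 0.000876). All 3 genes had every subcutaneous value above every dish value.

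Of the closing steps, Ebp, the sterol isomerase, had 8.20, 7.48 and 7.84 in dish and 8.46, 7.25 and 6.88 in subcutaneous cells. The groups overlapped and it was not called (−0.31 ± 0.44, adjusted p = 0.726). Sc5d, the desaturase that acts next, had 11.19, 11.19 and 10.77 against 13.00, 12.71 and 12.63 (1.73 ± 0.35, adjusted p = 0.00499). Dhcr7, the reductase that yields cholesterol, had 6.61, 6.21 and 5.87, all under background, against 9.84, 9.10 and 9.45. Its rise was at least 2.04 (adjusted p = 0.000583), so that the enzymes on both sides of Ebp rose while Ebp itself had no call.

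Among the control genes, only Insig1 was called. It is itself an SREBP target as well as a retention protein. It had 7.13, 7.33 and 7.24 in dish, under background, and 8.35, 8.83 and 8.15 in subcutaneous cells, at least 1.02 higher (adjusted p = 0.0180). Insig2 was under background in every group. Srebf2, which encodes the SREBP that acts mainly on sterol genes, had 11.87, 11.59 and 12.01 against 12.76, 11.91 and 11.72, overlapping and not called (adjusted p = 0.660). Scap had 9.03, 8.03 and 8.56 against 7.95, 7.58 and 6.90. Its subcutaneous values all lay below the dish values, but it was not called (−1.06 ± 0.35, adjusted p = 0.0606), and it was called lower without dish replicate 2 or without subcutaneous replicate 1 (adjusted p between 0.0263 and 0.0481 over the 6 settings that called it).

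Of the transport genes and lipid targets, Stard4, a soluble sterol carrier, rose by 1.74 ± 0.24 (7.66 ± 0.21 to 9.40 ± 0.17, adjusted p = 0.000362). Lpin1, a phosphatidate phosphatase and SREBP target, had 5.69, 5.54 and 4.67 in dish cells, under background, and 8.78, 8.91 and 8.96 in subcutaneous cells. That is at least 1.46 higher (adjusted p = 9.53e-06), and the 3 subcutaneous arrays lay close together. Npc1, which exports sterol from lysosomes, was called higher (adjusted p = 0.00631) with all 9 values under background (4.92 to 7.02), so no fold is given. Its partner Npc2 was well above background and not called (9.06 ± 0.39 against 9.83 ± 0.45, adjusted p = 0.255). The efflux pumps Abca1 and Abcg1 were under background in all groups.

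These calls were the least dependent on any 1 array: leaving out each array in turn gave 15 to 18 called genes. Idi1 lost its call without dish replicate 3 or subcutaneous replicate 1 (adjusted p 0.0594 to 0.0793). Insig1 lost it without dish replicate 1, dish replicate 3 or subcutaneous replicate 2 (0.0541 to 0.0756). With RNA integrity as a covariate, Hmgcs1, Insig1 and Npc1 were no longer called (adjusted p 0.0524, 0.144 and 0.0862).

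Cells from the lung had less signal from most of the pathway than cells from subcutaneous tumours at the same day. Of the 27 genes, 13 fell and 2 rose, Ebp and Scap, with a median difference of −1.02 against −0.07 over all genes. Over all genes 15.0% were called, 9.21% higher in lung and 5.79% lower. Of the 17 enzymes, 9 fell and 1 rose (median −1.22), namely 3 of 7 lower in the mevalonate arm and 6 of 10 in the sterol arm. The values of the groups did not overlap for 14 of the 27 genes, 12 of them lower in lung cells. Over all 19505 genes they did not overlap for 6345, 3270 of them lower. This comparison shares its subcutaneous arrays with the previous one and its lung arrays with the next, so the differences are not independent.

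**Figure D3:**
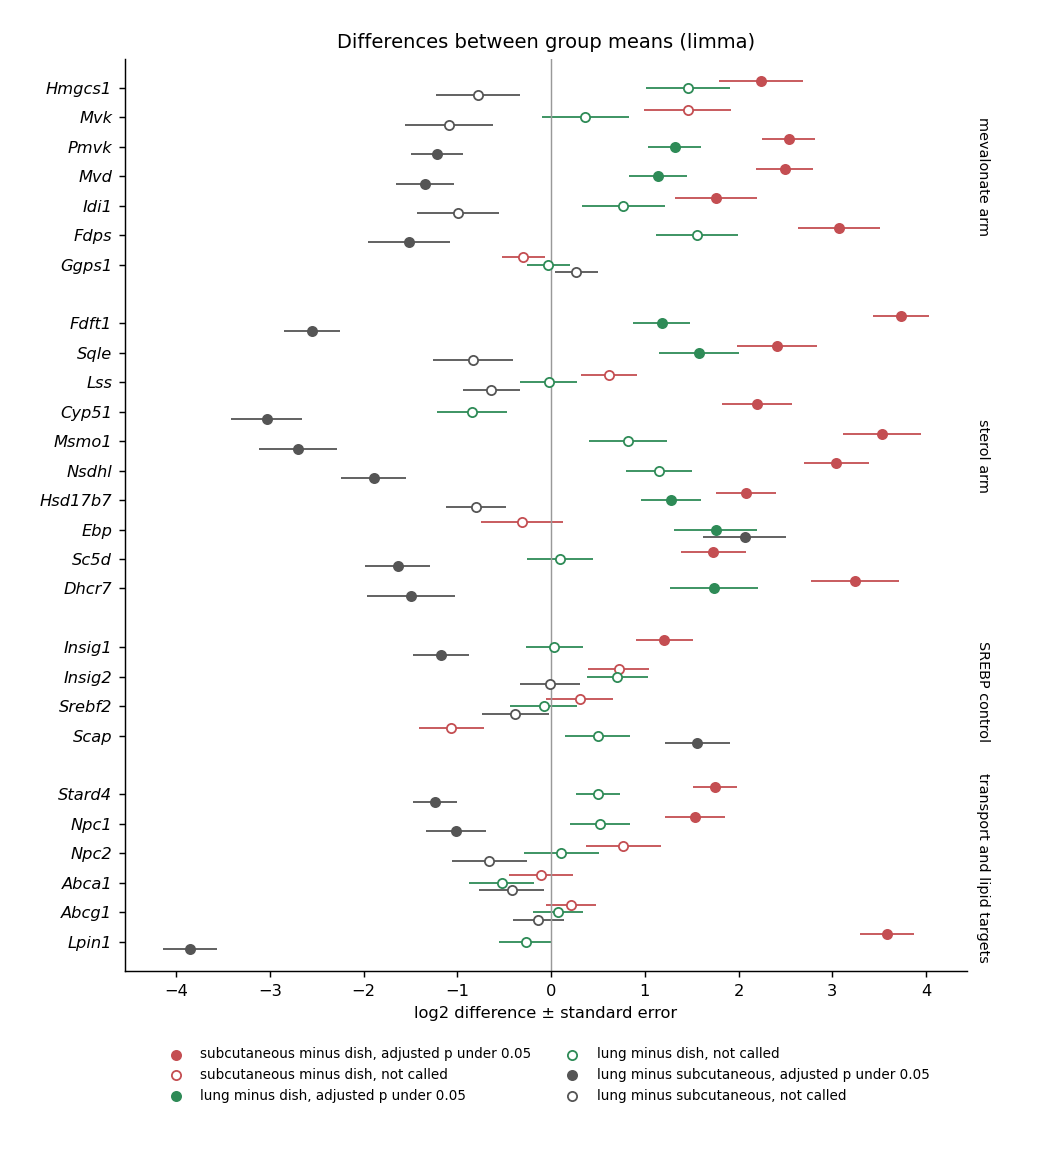
Fitted log2 difference with its standard error for each of the 27 genes in the 3 comparisons; filled points are called at an adjusted p under 0.05, and values of genes under background in a group are as fitted, not bounds. Subcutaneous minus dish lies above 0 for 23 genes and lung minus subcutaneous above 0 for 3, with Ebp and Scap the only called ones.

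The greatest falls among the enzymes were those of Cyp51, Msmo1 and Fdft1 in the sterol arm. Cyp51 had 6.98, 7.44 and 8.17 in lung cells, with 2 arrays above background, against 11.32, 10.50 and 9.88 in subcutaneous cells. Its 8.20-fold lower signal (−3.03 ± 0.38, adjusted p = 0.000327) left every lung array below every subcutaneous one. Msmo1 had 6.85, 8.14 and 8.88 against 10.90, 10.68 and 10.40 (−2.70 ± 0.42, adjusted p = 0.00117), again without overlap. Fdft1 had 9.89, 10.49 and 11.11 against 13.23, 12.99 and 12.91 (−2.55 ± 0.30, adjusted p = 0.000285). Nsdhl (−1.89 ± 0.35, adjusted p = 0.00331) and Sc5d (−1.64 ± 0.35, adjusted p = 0.00736) fell as well.

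In the mevalonate arm the calls were Pmvk (8.24, 8.68 and 9.24 in lung cells; −1.22 ± 0.28, adjusted p = 0.0116), Mvd (8.83, 9.43 and 9.10; −1.35 ± 0.31, adjusted p = 0.0111) and Fdps (12.22, 13.39 and 14.24; −1.52 ± 0.44, adjusted p = 0.0352). The lung values of all 3 lay below their subcutaneous values. On lung replicate 3 Fdps came close to the lowest subcutaneous array. Hmgcs1 (6.39, 8.17 and 7.52 in lung cells) and Idi1 (7.02, 7.29 and 9.10) overlapped with the subcutaneous group and were not called (adjusted p = 0.272 and 0.153). Neither were Mvk (6.20 ± 0.47 in lung cells, adjusted p = 0.139) and Ggps1 (9.33 ± 0.18, adjusted p = 0.484).

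Sqle and Hsd17b7 in the sterol arm also overlapped between the groups. Sqle had 8.63, 9.29 and 10.11 in lung cells (adjusted p = 0.217 against subcutaneous) and Hsd17b7 had 9.53, 9.71 and 10.63 (adjusted p = 0.116). Lss had 9.40, 9.37 and 9.49, all below its subcutaneous values, and was not called (adjusted p = 0.182). Dhcr7 had 6.98, 7.61 and 9.31, overlapping, and passed narrowly (−1.50 ± 0.47, adjusted p = 0.0478).

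Ebp and Scap went the other way. Ebp had 9.30, 8.97 and 10.52 in lung cells against 8.46, 7.25 and 6.88 in subcutaneous cells, of which 1 lay above background (2.07 ± 0.44, adjusted p = 0.00753). Scap had 8.94, 9.53 and 8.64 against 7.95, 7.58 and 6.90 (1.56 ± 0.35, adjusted p = 0.00909). For both genes every lung array was above every subcutaneous array. Insig1, the other called control gene, fell by 1.18 ± 0.30 (6.61, 7.46 and 7.73 in lung cells, adjusted p = 0.0198). Srebf2, with 11.35, 12.55 and 11.34 in lung cells, was not called (adjusted p = 0.525).

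Lpin1 had the largest fitted difference between these groups of the 27 genes (−3.85 ± 0.29). It had 4.89, 5.33 and 4.87 in lung cells, under background, against 8.78, 8.91 and 8.96, at least 1.62 lower (adjusted p = 1.52e-05). Stard4 fell by 1.24 ± 0.24 (7.91, 8.27 and 8.30 in lung cells, adjusted p = 0.00397). Npc1 was called lower (adjusted p = 0.0488) with all its values under background. Npc2 had 8.63, 8.68 and 10.20 in lung cells and was not called (adjusted p = 0.301).

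Fdft1, Cyp51, Msmo1, Ebp and Lpin1 kept their calls under all 19 alternatives tried. Dhcr7 lost its call on omission of any single array except lung replicate 3 (adjusted p 0.0592 to 0.203), and Npc1 without any of 7 arrays, the exceptions being subcutaneous replicate 1 and lung replicate 1 (0.0630 to 0.155). Without lung replicate 1, Pmvk, Mvd, Fdps and Insig1 were not called (adjusted p 0.0665, 0.0582, 0.148 and 0.0998 respectively) and the difference of Fdps shrank to −0.98. Fdps was also lost without dish replicate 2, subcutaneous replicate 1, subcutaneous replicate 2 or lung replicate 2 (0.0502 or more), and Insig1 without subcutaneous replicate 2 (0.0737). Without lung replicate 3 the count was 17, and with the long-mRNA level as a covariate it was 6.

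Against dish cells, lung cells had more signal from a subset of the enzymes only. Of the 27 genes 7 rose, all enzymes, and 0 fell, with a median difference of 0.52 against −0.07 over all genes. An unadjusted limma p under 0.05 was reached by 12 of the 27 genes and by 4271 of all 19505 genes. Over all genes 6.78% were called, 4.81% higher and 1.97% lower. The 7 were Pmvk and Mvd of the mevalonate arm and Fdft1, Sqle, Hsd17b7, Ebp and Dhcr7 of the sterol arm, and the median of the 17 enzymes was 1.15. None of the control, transport and lipid target genes was called.

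Pmvk stood 1.32 ± 0.28 above dish (adjusted p = 0.0140), Mvd 1.14 ± 0.31 (0.0430), Fdft1 1.18 ± 0.30 (0.0337), Sqle 1.57 ± 0.43 (0.0438) and Hsd17b7 1.28 ± 0.32 (0.0317). All 5 had every lung array above every dish array and were also called higher in subcutaneous cells. Ebp, with 8.20, 7.48 and 7.84 in dish cells, was 1.76 ± 0.44 higher in lung cells (adjusted p = 0.0311), so it rose in lung cells against both groups. Dhcr7 was at least 0.54 higher (adjusted p = 0.0430). Fdps, Nsdhl and Hmgcs1 did not overlap between lung and dish but were not called (adjusted p = 0.0516, 0.0686 and 0.0713). Lung and dish values did not overlap for 11 of the 27 genes, all 11 higher in lung cells. Over all 19505 genes they did not overlap for 5547, 2613 of them higher.

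Other genes called in both comparisons with subcutaneous cells had no call here. Sc5d, the desaturase, had a lung mean of 11.15 ± 0.81 against 11.05 ± 0.24 in dish (0.09, adjusted p = 0.911). Insig1 had 7.27 ± 0.59 against 7.23 ± 0.10 (adjusted p = 0.968), both overlapping between the groups. Stard4 had 8.16 ± 0.22 against 7.66 ± 0.21, with every lung value above every dish value (0.50 ± 0.24, adjusted p = 0.234). Cyp51 had a lower mean in lung than in dish cells, 7.53 ± 0.60 against 8.37 ± 0.29, with overlapping values and no call (−0.84 ± 0.38, adjusted p = 0.211).

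These 7 calls depended on single arrays. The count was 0 without dish replicate 2, 0 without dish replicate 3 and 3 without dish replicate 1. It was 4 without subcutaneous replicate 2, 2 without lung replicate 2, 1 without lung replicate 3 and 9 without lung replicate 1. Over all genes the calls went from 1322 (6.78%) to 514 (2.64%) without dish replicate 2 and 667 (3.42%) without dish replicate 3. They were 1097 without dish replicate 1, 765 without lung replicate 2, 1442 without lung replicate 3 and 591 without lung replicate 1. The median difference of the 27 genes was 0.65 without dish replicate 2 and 0.51 without dish replicate 3, against 0.52. Without lung replicate 3 the fitted difference of Dhcr7, whose dish values were under background, was 1.06 in place of 1.74. Quantile normalization left 0 calls and upper-quartile scaling 2, the latter moving the median of all genes from −0.07 to −0.40.

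Set side by side, the group means of 19 of the 27 genes, 13 of them enzymes, ran from dish through lung to subcutaneous, an order that 15.4% of all genes had. Of the 19, Insig2, Npc1 and Abcg1 were under background on all arrays and Mvk in both dish and lung cells, so their order was not measured. Lss, Cyp51 and Srebf2 had lung lowest and subcutaneous highest. Lpin1 was highest in subcutaneous cells and under background in the others. Ebp and Scap had subcutaneous lowest and lung highest. Ggps1 ran from subcutaneous through lung to dish, and Abca1 was under background on all arrays.

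The enzymes also differed among samples of 1 group. Relative to its dish mean, the median enzyme stood at 0.49, 1.13 and 1.74 on lung replicates 1 to 3 and at 2.82, 2.26 and 1.65 on subcutaneous replicates 1 to 3, while the dish arrays had 0.20, 0.10 and −0.17. Lung replicate 3 had the highest lung value for 13 of the 17 enzymes and lung replicate 1 the lowest for 14. Over all genes, lung replicate 3 was highest in 35.8%. In the subcutaneous group, replicate 1 was highest for 15 of the 17 and replicate 3 lowest for 15. The median SD of an enzyme was 0.292 in dish, 0.428 in subcutaneous and 0.701 in lung cells, against 0.289, 0.332 and 0.267 over all genes. The median on lung replicate 3 thus lay above that on subcutaneous replicate 3.

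**Figure D4:**
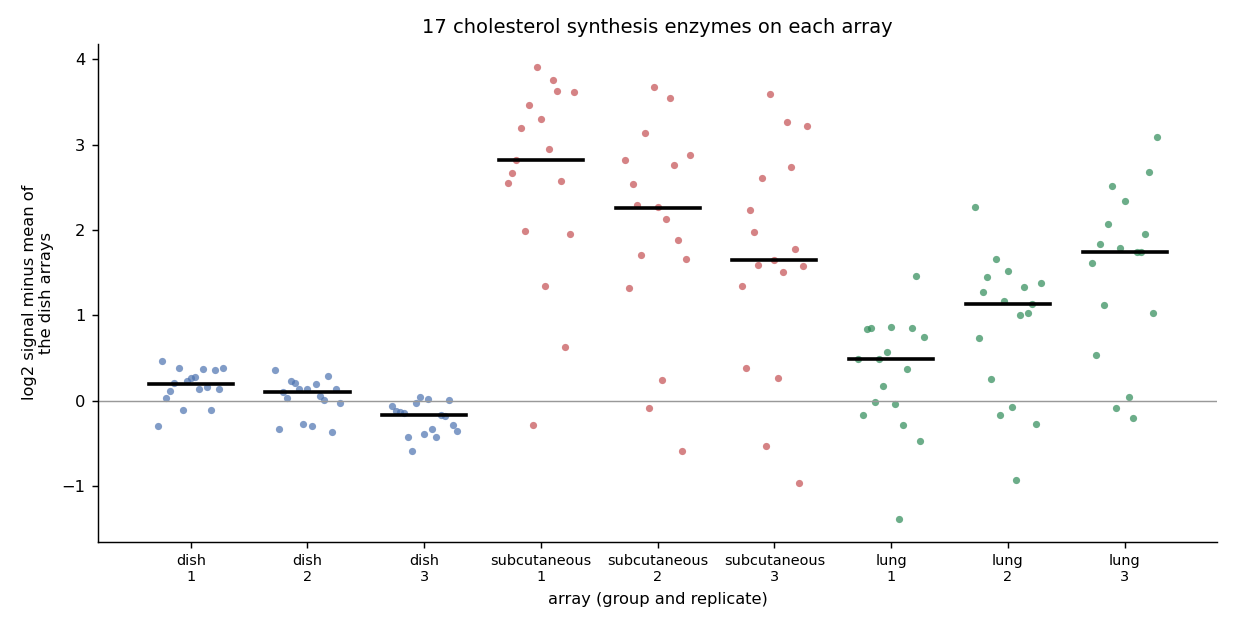
Log2 signal of each of the 17 enzymes on each array minus that gene's mean over the 3 dish arrays; each point is a gene and the bar is the median. The medians are 2.82, 2.26 and 1.65 on the subcutaneous arrays and 0.49, 1.13 and 1.74 on the lung arrays.

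Markers of the tumour line and of other cells, and technical measures, differed between the same arrays. Krt18, Krt8 and Vim were all called higher in subcutaneous than in dish cells (Krt8 by 1.63 ± 0.29, adjusted p = 0.00209, and Vim by 1.61 ± 0.30, adjusted p = 0.00318), and Krt18 and Vim lower in lung than in subcutaneous cells (adjusted p = 0.000236 and 0.00484). Cdh1, under background on all arrays, was called the other way. It was lower in subcutaneous than in dish cells (adjusted p = 0.04996) and higher in lung than in subcutaneous cells (adjusted p = 0.0173). The first of these calls was lost in 8 of the leave-one-out fits and the other in 3. Epcam was not called. The mean signal of the bacterial control features was 12.73 to 12.96 on the subcutaneous, 11.86 to 12.16 on the dish and 10.95 to 11.58 on the lung arrays, without overlap between groups. The summed signal of 10 alveolar type II markers was 15.65, 13.57 and 16.47 on lung replicates 1 to 3, with 4, 3 and 6 markers above background, against 8.46 to 9.42 on the other arrays, where at most 1 was. Lung replicate 3, the highest for most enzymes, was thus the highest for this list as well. Lung replicate 1, the lowest for most enzymes, lay above lung replicate 2 for this list. Sftpc alone had 15.59, 13.45 and 16.37 on lung replicates 1 to 3 and made up most of the sum there. Of the 10 markers, 7 were called higher in lung than in subcutaneous cells and 0 lower. Abca3 had a mean of 8.44 in subcutaneous and 7.91 in lung cells, with no call between them, and was called higher in subcutaneous than in dish cells (adjusted p = 0.0155). The summed signal of 9 fibroblast markers was 16.48 to 17.25 in subcutaneous cells (3 or 4 above background) and 8.98 to 9.43 in dish cells (0 to 2). It was 13.98, 12.3 and 10.87 on lung replicates 1 to 3 (1 or 2 above background), the reverse of the order of the enzyme medians on these arrays. Col1a1, Col1a2 and Col3a1 were under background on all arrays. Dcn alone had 16.37 to 17.09 in subcutaneous cells and made up most of the sum there. Of the 9 markers, 3 were called higher in subcutaneous than in dish cells and 1, Pdgfrb, lower (adjusted p = 0.0362). The call of Pdgfrb was lost in 5 of the leave-one-out fits. Of 7 adipocyte markers only Fabp4 passed background on any array and 0 were called, and the defining genes were under background. Of 13 macrophage markers 0 were called and at most 2 were above background on an array, and of 8 endothelial markers 0 were. Lung replicate 3 had a long-mRNA level of −0.203 against 0.934 and 1.11 on the other lung arrays. With that level as a covariate the lung calls fell to 6 against subcutaneous and 1 against dish, while the subcutaneous calls against dish were 18. The part of the keratin, alveolar, fibroblast, bacterial control and long-mRNA levels in these results was not tested beyond this.

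Genes of the wider sterol network were called in both directions. Of 32 measured genes of related steps (acetyl-CoA supply, uptake, esters, oxysterols, ER control, dolichol and prenylation), 5 rose and 4 fell in subcutaneous against dish cells (28.1% called, against 12.9% of all genes), with a median of 0.11. Against subcutaneous cells, 6 were higher and 4 lower in lung cells (31.2% against 15.0%, median −0.06), but 3 and 5 after quantile normalization and 2 and 8 after upper-quartile scaling. Against dish, 3 were higher and 0 lower in lung cells (median 0.11), a share of 9.38% near the 6.78% of all genes. The sign of each of these medians changed under at least 1 alternative.

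Among genes next to the pathway, those that rose in subcutaneous cells included Acly, which makes cytosolic acetyl-CoA, and Erg28, which tethers the C-4 demethylation enzymes. Acly had 13.59, 13.05 and 12.81 in dish and 15.14, 14.75 and 14.38 in subcutaneous cells (1.61 ± 0.27, adjusted p = 0.00163). Erg28 rose by 1.44 ± 0.26 there (adjusted p = 0.00236) and was lower in lung than in subcutaneous cells (−1.28 ± 0.26, adjusted p = 0.00542). The latter call was lost with the long-mRNA covariate (adjusted p = 0.0920). Nus1, of dolichol synthesis, ran the other way, with 12.08, 12.18 and 12.53 in dish, 10.87, 10.84 and 11.25 in subcutaneous and 12.54, 12.48 and 12.11 in lung cells. It was called lower in subcutaneous than in dish cells (−1.28 ± 0.24, adjusted p = 0.00359) and higher in lung than in subcutaneous cells (1.39 ± 0.24, adjusted p = 0.00251). Dolichol partner Dhdds had −0.97 and 0.93 in the same comparisons (adjusted p = 0.0302 and 0.0348), calls that were lost in 5 of the leave-one-out fits each (without subcutaneous replicates 2 or 3 in both; adjusted p 0.0602 to 0.117).

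Uptake and ester genes also differed. Lrp1, a lipoprotein receptor, had 7.31, 6.55 and 6.23 in dish, with 1 array above background, 9.91, 10.20 and 9.55 in subcutaneous and 8.64, 8.50 and 8.66 in lung cells. It was called in all 3 comparisons (3.19 for subcutaneous minus dish, −1.29 for lung minus subcutaneous, 1.90 for lung minus dish). Nceh1, a cholesterol ester hydrolase, had 10.18, 10.52 and 9.94 in subcutaneous cells and 6.17, 6.98 and 6.72, under background, in lung cells (adjusted p = 0.000285). Scarb1, a receptor for high-density lipoprotein, was highest in lung cells (10.90, 11.55 and 10.87) and was called against dish (1.54 ± 0.27, adjusted p = 0.00575). With the long-mRNA covariate, the calls of Lrp1 and Scarb1 for lung against dish were lost (adjusted p = 0.179 and 0.396).

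SREBPs also control fatty acid genes. Of 12 measured targets, 6 rose in subcutaneous against dish cells (median 0.71; 12.9% of all genes were called there). In lung cells 1 rose and 3 fell against subcutaneous (33.3% against 15.0%, median −0.39), and 4 rose against dish (33.3% against 6.78%, median 0.91). The desaturases were highest in subcutaneous cells. Scd1 had 9.98, 9.72 and 8.52 in dish, 12.31, 12.84 and 12.68 in subcutaneous and 10.30, 10.79 and 10.84 in lung cells (lung minus subcutaneous −1.97 ± 0.35, adjusted p = 0.00268). Fads2 (−3.28 ± 0.45, adjusted p = 0.000617) and Fads1 were also lower in lung than in subcutaneous cells (−1.61 ± 0.33, adjusted p = 0.00634). The call of Fads1 was lost with the long-mRNA covariate (adjusted p = 0.0647).

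Fasn, fatty acid synthase, was highest in lung cells. It had 13.58, 13.17 and 13.43 in dish, 14.22, 13.46 and 13.18 in subcutaneous and 15.34, 15.22 and 14.50 in lung cells. Lung cells lay above both other groups without overlap (1.40 ± 0.31 against subcutaneous, adjusted p = 0.00966, and 1.63 ± 0.31 against dish, adjusted p = 0.00843), and dish and subcutaneous cells overlapped (adjusted p = 0.714). Without lung replicate 1 the call against subcutaneous cells was lost (adjusted p = 0.0541), and with the long-mRNA covariate both were (0.188 and 0.502). Elovl6, an elongase, was higher than in dish in both transplanted groups (1.75 ± 0.26 subcutaneous, adjusted p = 0.000658, and 1.46 ± 0.26 lung, adjusted p = 0.00547). Its lung call was lost with the long-mRNA covariate (adjusted p = 0.0892).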

How the data were processed

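The authors deposited 1 table of log2 signals (28846 rows, 9 arrays, values 1.56 to 19.7). Per the labels' protocols, total RNA was labelled with biotin for 1-colour whole-transcript arrays. For normalization, software and build the sources used here give nothing. The log2 values were used as deposited. Groups and replicate numbers came from the titles. Of 22206 gene features, 19572 had 1 symbol in the platform annotation and 2634 had none here. For 55 genes with several features the one with the highest mean was taken, which left 19505 genes and no filter on level. Other columns of per-sample values numbered 0.

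The test was limma's (version 3.58.1, R 4.3.3; lmFit, eBayes, 3 group means, 6 residual and 7.08 prior degrees of freedom, two-sided, Benjamini-Hochberg over 19505 genes, called under 0.05). The steps were tested on simulated data with 200 changed genes. Of the simulated differences of 2, 82% were called, and of those of 1, 11%. A gene not called may therefore still differ by about 1. The number of arrays limits the precision. The members and lists were chosen with earlier results of these data known. All measured members are named. Of other lists, up to 4 called genes each way per comparison could be named, by size of difference. Dhdds against subcutaneous cells and Elovl6 in subcutaneous cells were named after their values were seen. Erg28 in subcutaneous against dish cells (1.44) was likewise outside this limit, behind Lipa (1.46), which was called but not described. Deviations of arrays with the same replicate number correlated at −0.0567 to 0.0854, and those with other numbers at −0.138 to 0.0977. The values thus gave no sign of pairing by number, which cannot show whether samples with the same number were handled together. Alternatives were quantile normalization, upper-quartile scaling, a filter on dim genes, trend and robust fitting, array weights, a replicate block, RNA integrity, only the 6 arrays compared, the mean of features and leaving out each array. The long-mRNA covariate was chosen after seeing the data. Motifs were counted in Python 3.11.15.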

Additional observations from a re-analysis of the deposited data

How the results depend on the processing

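Subcutaneous against dish gave 15 to 19 calls over the 19 alternatives, of which 14 to 17 were among the 17 main calls, and 13 of the 17 main calls were made in every one. The filter on dim genes tested 22 of the 27 genes in each comparison. Lung against subcutaneous gave 12 to 18 calls under the alternatives planned on all 9 or on 6 arrays, 10 to 17 with 1 array left out, and 6 (1 higher, 5 lower) with the long-mRNA covariate, which was chosen after seeing the data. Lung against dish gave 0 calls after quantile normalization, 2 after upper-quartile scaling, 1 with the long-mRNA covariate and 0 to 9 with 1 array left out, against 7. The cause was not tested. With 1 array left out, the smaller group has 2 arrays. Over all genes, lung against dish gave 1218 calls after quantile normalization and 159 with the long-mRNA covariate, and lung against subcutaneous 1199 with it. No called difference of a listed gene changed sign under any alternative.

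With the replicate number as a replicate block, the counts were 13 for lung against subcutaneous, 7 for lung against dish and 17 for subcutaneous against dish. The values gave no sign of pairing by number, so the block is only an alternative. Genes that passed under some alternatives only include Mvk, called in 6 of the 18 alternatives that tested it for subcutaneous against dish, and Cyp51, called lower in lung than in dish cells with array weights (adjusted p = 0.0290). Background limits Hmgcs1, Mvk, Idi1, Dhcr7, Insig1 and Lpin1, whose dish values were all under it. Groups of 3 are too small for a test of outlying samples.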
